A study of Mus musculus with 8 samples.

Results

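Genes for the subunits of the oxidative phosphorylation complexes were examined in whole lungs of Snx5-deficient mouse embryos. They were taken by symbol from the annotation of the array, as every gene whose symbol begins with Nduf and one of the letters a, b, c, s or v, with Cox and a number from 4 to 8, with Atp5 or with Uqcr, together with Sdha to Sdhd. The rule matched 85 of the 16593 genes named on the array, and each gene is given by its brightest probe, by the mean of all 8 arrays. Of these, 33 encode subunits of complex I, 3 of complex II, 8 of complex III, 19 of complex IV and 16 of complex V, with Ndufa4 counted in complex IV. The other 6 matches (Ndufaf1, Ndufaf3, Ndufaf4, Ndufaf5, Ndufaf7 and Ndufs5-ps) are assembly factors and a pseudogene by name. Of complex II only Sdhb, Sdhc and Sdhd were matched, and Sdha was not analysed here.

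The series compared Snx5-/- with Snx5+/+ lungs at embryonic day 18.5, each genotype without air (non-air) and after an air-breathing test (air), with 2 arrays for each of the 4 groups. Snx5-/- embryos were homozygous for a gene trap that placed a β-geo reporter in an intron of Snx5, derived from 1 embryonic stem cell line and backcrossed to C57BL/6, the strain that the labels give for all groups. In the test, embryos were delivered by caesarean section, lung fluid was removed and the pups breathed room air in a warmed chamber. The study's methods call the arrays biological replicates, 2 for each genotype, while the labels name no embryos, so p-values measure the spread between these arrays, whatever their source.

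The complexes of oxidative phosphorylation sit in the inner mitochondrial membrane. Complexes I and II pass electrons from NADH and succinate to ubiquinone, complex III passes them on to cytochrome c, complex IV hands them to oxygen, and complex V uses the proton gradient so built to make ATP. Except for complex II, each complex combines subunits made from mitochondrial DNA, which the rule does not cover, with nuclear-encoded ones, many of them small supernumerary proteins around a catalytic core.

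Each array detected between 12209 and 12685 probes, and the deposited log2 values had a median of 8.05 on each array. The more responsive Snx5 probe had log2 levels of 7.10 to 7.29 on the 4 Snx5-/- arrays and 7.84 to 8.42 on the 4 Snx5+/+ arrays, close to background. All 12 genes of a lung identity list were detected on every array. The non-normalized intensities carry the opposite air labels from the log2 table for every array, the log2 labels are used here, and under the other labels the air comparisons and the interaction change sign and the non-air and air genotype comparisons change places. The detection p-values given beside the intensities did not show this exchange, and which labels are right was not settled. The lungs labelled Snx5-/- non-air carry a description that names wild type, and were grouped by their genotype field.

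Of the 85 genes, 78 had a mean log2 level above 8 and were detected on all 8 arrays. Their mean levels covered 8.67 for Cox8b to 15.70 for Atp5g3, which encodes a copy of the c subunit of the ATP synthase rotor. Probes for Atp5k, Cox7b2, Cox8c, Ndufs1, Uqcrfs1 and Uqcrq were detected on 0 arrays and that for Ndufab1 on 1 array, and these 7 genes have no usable level here.

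No oxidative phosphorylation gene changed by the criteria used for every comparison, a Benjamini-Hochberg adjusted p under 0.05 from limma over all probes tested and a difference of more than 1.28-fold, the cutoff of the study's methods. Between Snx5-/- and Snx5+/+ lungs without air, 0 of 79 members tested were called, where 0.639% of all genes tested were called, and 15 members had an unadjusted p under 0.05, all higher in Snx5-/- lungs, where 13.8% of all genes had one in either direction. Between Snx5-/- and Snx5+/+ lungs after air, 0 of 78 members were called beside 2.36% of all genes, and 1 member each way had an unadjusted p under 0.05, beside 15.2% of all genes. Averaged over both states, 0 of 79 members were called beside 2.41% of all genes, with 5 members at an unadjusted p under 0.05, all higher in Snx5-/- lungs, beside 15.8% of all genes. For air against non-air in Snx5-/- lungs, 0 of 79 members were called beside 0.701% of all genes, with 0 at an unadjusted p under 0.05 beside 9.91% of all genes. In Snx5+/+ lungs 0 of 78 were called beside 0.796%, with 25 at an unadjusted p under 0.05, all higher after air, beside 16.8% of all genes. In the interaction of genotype and air, 0 of 79 members were called beside 0.488% of all genes, and 17 had an unadjusted p under 0.05, all negative, beside 12.0% of all genes. The methods' t-test with the same fold cutoff gave 0 members after Benjamini-Hochberg adjustment in the 4 comparisons it could be run on, and 1 member at an unadjusted p under 0.05, higher after air in Snx5+/+ lungs.

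Although no single gene passed, the members lay to one side together in several comparisons. Without air the median log2 difference of Snx5-/- against Snx5+/+ lungs was 0.27 over the 79 members, 77 of which were positive, while the median over all 9386 genes tested was 0.00. After air in Snx5+/+ lungs the median of the members was 0.30, with 73 of 78 positive, beside 0.00 for all genes. In the interaction the median was -0.38 and 3 of 79 were positive. By contrast the members' median was -0.08 between Snx5-/- and Snx5+/+ lungs after air and -0.07 for air against non-air in Snx5-/- lungs. Both of these turned on the Snx5-/- air arrays, at 0.01 and 0.00 without replicate 1 of that group and -0.21 and -0.19 without replicate 2. The comparisons share arrays, in particular the Snx5+/+ non-air pair, which enters each of the 3 large medians.

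**Figure D1:**
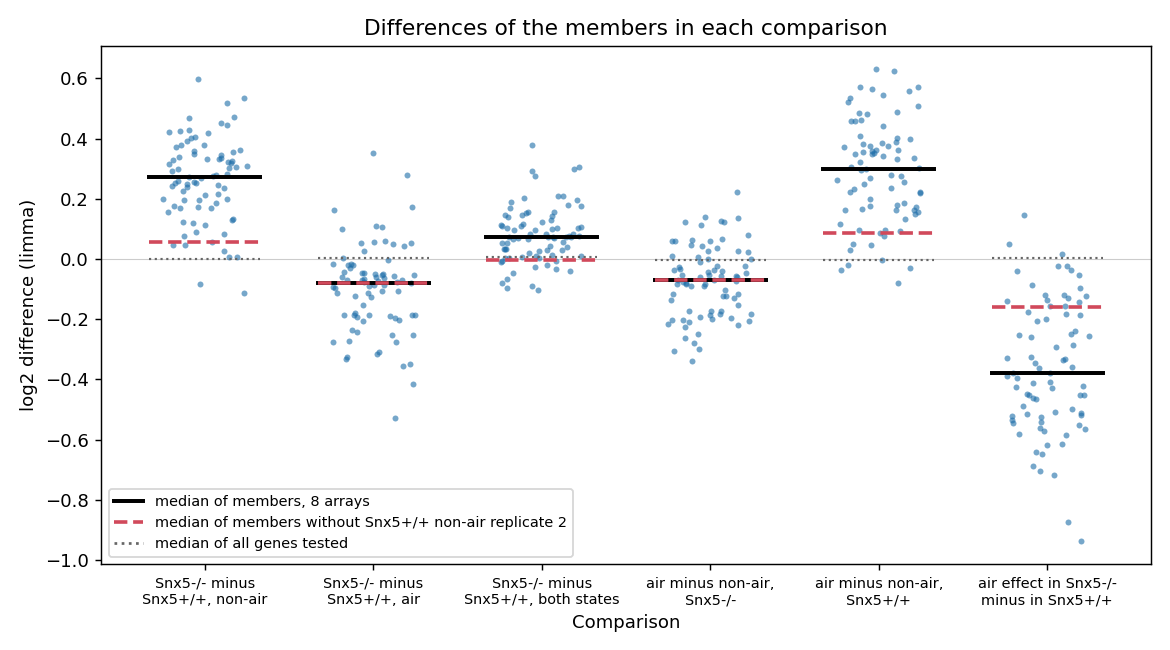
log2 difference of each tested oxidative phosphorylation gene (points) in the 6 comparisons on the horizontal axis, with the median of the members on 8 arrays (black bar), their median without Snx5+/+ non-air replicate 2 (dashed bar) and the median of all genes tested (dotted bar). The black bars at 0.27, 0.30 and -0.38 move to 0.06, 0.09 and -0.16 when that 1 array is left out.

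The 3 large medians rested mostly on 1 array. The level of each gene was set against its own mean over the 8 arrays, and the median of this deviation over the 78 detected members was taken for every array. It was 0.07 and 0.08 on the Snx5-/- non-air arrays, 0.02 and -0.44 on the Snx5+/+ non-air arrays, -0.11 and 0.09 on the Snx5-/- air arrays, and 0.06 and 0.14 on the Snx5+/+ air arrays. Snx5+/+ non-air replicate 2 therefore stood below the other 7 arrays, whose medians covered -0.11 to 0.14. Of the 78 members, 61 had their lowest value of the 8 arrays on it, against 21.0% of the 9177 genes above the same level. The median of all these genes on that array was 0.00, and it stayed between -0.02 and 0.04 when the genes were parted by level into 4 ranges. Some marker lists of other cell types also lay low on that array, though not on it alone. The median deviation there was -0.75 over 6 detected genes of a neutrophil list, 5 of them lowest on it, -0.58 over 12 heart muscle genes, 8 of them lowest on it, and -0.43 over 4 skeletal muscle genes, 3 of them lowest on it. It was 0.26 over the 12 lung identity genes and 0.18 over 4 genes of a red blood cell list. On Snx5+/+ non-air replicate 1 the neutrophil, heart muscle and skeletal muscle medians were -0.50, -0.22 and -0.21, where that of the members was 0.02. The heart muscle median was also -0.31 and -0.30 on the Snx5+/+ air arrays. The summed linear intensity of the 8 neutrophil genes on the array was 14591 and 14291 in Snx5-/- non-air lungs, 10329 and 7032 in Snx5+/+ non-air lungs, 23170 and 27315 in Snx5-/- air lungs and 14869 and 15728 in Snx5+/+ air lungs, with Elane and Mpo detected on 0 arrays. The part of these cells in the low values of the members was not tested.

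**Figure D2:**
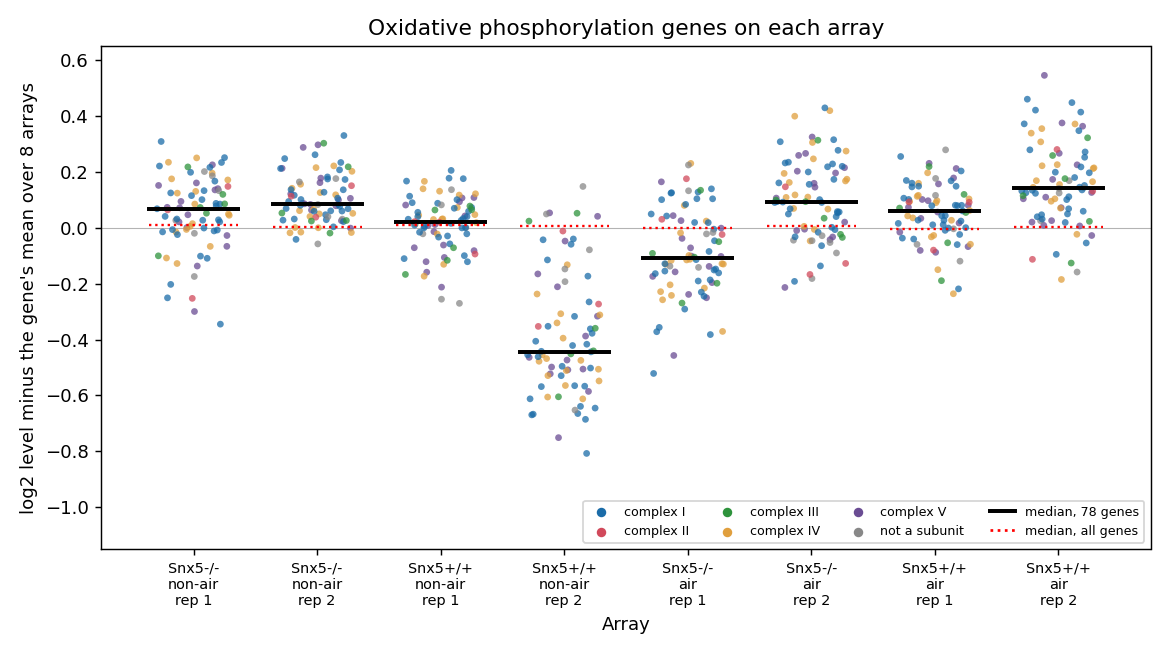
Deviation of 78 oxidative phosphorylation genes from their own mean over 8 arrays (log2, vertical axis) on each array, coloured by complex, with the median of the members (black) and of all genes above a log2 level of 8 (dotted red). The members sit around -0.44 on Snx5+/+ non-air replicate 2 and around medians of -0.11 to 0.14 elsewhere, while the medians of all genes stay near 0.

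Without that array the median difference of Snx5-/- against Snx5+/+ non-air lungs was 0.06 with 59 of 79 members positive, that of air against non-air Snx5+/+ lungs was 0.09 with 65 of 78 positive, the average over both states was 0.00 with 39 of 79 positive, and the interaction was -0.16 with 11 of 79 positive. The number of members called was 0 in each of these (limma). When the other Snx5+/+ non-air array was left out instead, so that the low array stood alone for its group and was assumed to vary like the others, 28 members were called higher in Snx5-/- than in Snx5+/+ non-air lungs, beside 5.73% of all genes called in either direction. In that setting 41 were called higher after air than without air in Snx5+/+ lungs, beside 9.37% of all genes, 5 were called higher in Snx5-/- lungs on average, beside 3.19%, and 21 were called in the interaction, beside 4.51%. Over all 8 arrays, both Snx5-/- non-air arrays lay above both Snx5+/+ non-air arrays for 33 of 79 members, against 21.8% of all genes, and both Snx5+/+ air arrays lay above both Snx5+/+ non-air arrays for 38 of 78, against 23.6%.

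The low values on Snx5+/+ non-air replicate 2 ran through every complex. Its median deviation was -0.45 over 31 genes of complex I, -0.27 over the 3 of complex II, -0.40 over 6 of complex III, -0.47 over 17 of complex IV and -0.46 over 15 of complex V. On the other 7 arrays the medians of the complexes lay between -0.13 and 0.17. It was the lowest array for 27 of 31 genes of complex I, 16 of 17 of complex IV and 11 of 15 of complex V. Among the 6 matches that are not subunits its median deviation was -0.11, and it was the lowest array for 1 of them, the pseudogene Ndufs5-ps.

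In complexes I, III and V the subunits differed by role on that array, with exceptions, which was looked at after their values were seen. Complex II did not share this, since Sdhb deviated by -0.27 and the membrane anchor Sdhd by -0.01. In complex I, the 26 supernumerary subunits had a median deviation of -0.50 and the 5 detected catalytic core subunits one of -0.27. That array was still the lowest for 4 of these 5, and for 23 of the 26. Ndufb5, a supernumerary subunit of the membrane arm, had the lowest deviation of all, -0.81. Its log2 levels were 11.16 and 11.28 in Snx5-/- non-air lungs and 11.10 and 10.26 in Snx5+/+ non-air lungs, and 10.88 and 11.39 in Snx5-/- air lungs and 11.01 and 11.48 in Snx5+/+ air lungs. One Snx5+/+ non-air value was thus far below the other 7, and the second-lowest was Snx5-/- air replicate 1. Ndufa6, another supernumerary subunit, had 14.09 and 14.03 in Snx5-/- non-air lungs, 13.81 and 13.11 in Snx5+/+ non-air lungs, 13.62 and 13.94 in Snx5-/- air lungs and 13.74 and 13.90 in Snx5+/+ air lungs. Its log2 difference without air, 0.60, was the largest of the members (adjusted p = 0.243, limma), and both Snx5-/- values lay above both Snx5+/+ values.

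Ndufv1, which holds the NADH-oxidising site of complex I, had nearly the same level on every array. Its log2 levels were 13.32 and 13.28 in Snx5-/- non-air lungs and 13.31 and 13.28 in Snx5+/+ non-air lungs, and 13.37 and 13.39 in Snx5-/- air lungs and 13.28 and 13.36 in Snx5+/+ air lungs. The core subunit Ndufs3 deviated by -0.12 on the low array, and Ndufs7, Ndufv2 and Ndufs8 by -0.27, -0.32 and -0.35. The supernumerary subunits Ndufa9 and Ndufa10, both large proteins, deviated by -0.06 and -0.04.

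In complex III the core proteins Uqcrc1 and Uqcrc2, the large subunits that face the matrix, deviated by 0.02 and 0.05 on Snx5+/+ non-air replicate 2. The 4 small subunits did not share this: Uqcrb deviated by -0.45, Uqcr10 by -0.44, Uqcr11 by -0.60 and Uqcrh by -0.36. In complex V the α and β subunits of the catalytic head, Atp5a1 and Atp5b, deviated by -0.05 and 0.04, while the 3 genes for the c ring had a median of -0.59 and the 3 small membrane subunits Atp5j2, Atp5l and Atp5mpl one of -0.50. Atp5b had log2 levels of 15.56 and 15.59 in Snx5-/- non-air lungs, 15.51 and 15.63 in Snx5+/+ non-air lungs, 15.59 and 15.61 in Snx5-/- air lungs and 15.67 and 15.56 in Snx5+/+ air lungs. Atp5g2, which makes the same mature c subunit as Atp5g1 and Atp5g3, had 12.23 and 12.12 in Snx5-/- non-air lungs, 12.13 and 11.51 in Snx5+/+ non-air lungs, 11.89 and 12.29 in Snx5-/- air lungs and 12.11 and 12.45 in Snx5+/+ air lungs. The c subunit gene was thus low on 1 array where the β subunit gene was not. In the peripheral stalk, the b subunit Atp5pb deviated by 0.05, and Atp5h, Atp5j and Atp5o by -0.51, -0.46 and -0.39.

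**Figure D3:**
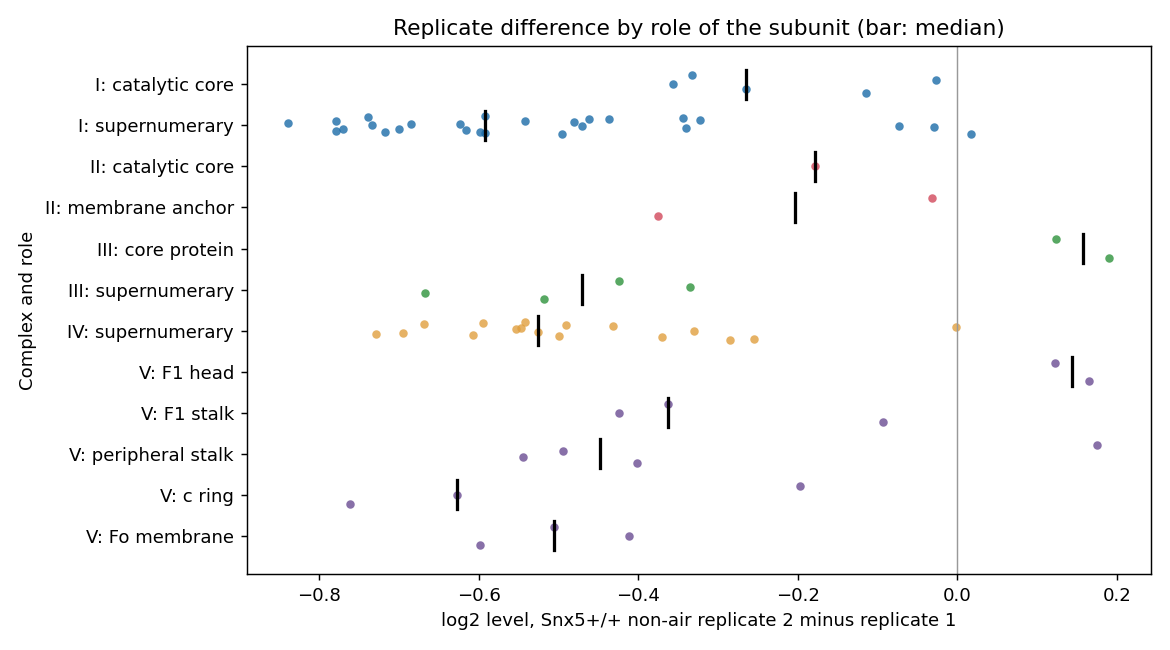
Difference in log2 level between the arrays of the Snx5+/+ non-air group, replicate 2 minus replicate 1 (horizontal axis), for each detected subunit, grouped by complex and role on the vertical axis, with the median of each group as a bar. The core proteins of complex III and the head subunits of complex V lie to the right of 0, and the supernumerary subunits of complexes I, III and IV lie mostly between -0.84 and -0.25.

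Altogether 12 of the 78 genes deviated by less than 0.1 below their mean on that array or lay above it, the subunits Ndufv1, Ndufa9, Ndufa10, Sdhd, Uqcrc1, Uqcrc2, Atp5a1, Atp5b and Atp5pb and the assembly factors Ndufaf1, Ndufaf3 and Ndufaf7. Other probes gave a like picture where genes had them. Among 15 further probes of 12 members with a mean above a log2 level of 8, the low array was the lowest of the 8 for 12 probes, and their median deviation on it was -0.46.

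Replicates differed to a lesser extent in the air groups. Snx5-/- air replicate 1 was below Snx5-/- air replicate 2 for 57 of the 72 detected subunits, and over the 78 members the median of replicate 1 minus replicate 2 was -0.21, where it was -0.01 over all genes. In the Snx5+/+ air group that median was -0.08. Replicate 1 was the lower one for 59 of 78 members in Snx5-/- air lungs and 58 of 78 in Snx5+/+ air lungs, and for 48 of 78 in Snx5-/- non-air lungs and 9 of 78 in Snx5+/+ non-air lungs. The replicates of the Snx5+/+ non-air group differed by a median of 0.45 over the members in absolute terms, those of the Snx5-/- air group by 0.28, and those of the Snx5-/- non-air and Snx5+/+ air groups by 0.11 each, against 0.09 to 0.14 for all genes in the 4 groups.

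Between genotypes, averaged over both states, the members with the largest differences were in complexes I, III and IV. Cox7a2l, singled out after its values were seen, had the lowest adjusted p. It is known for tethering complex III to complex IV in supercomplexes. Its log2 levels were 14.06 and 13.93 in Snx5-/- non-air lungs and 13.68 and 13.67 in Snx5+/+ non-air lungs, and 14.04 and 13.80 in Snx5-/- air lungs and 13.66 and 13.62 in Snx5+/+ air lungs. All 4 Snx5-/- arrays lay above all 4 Snx5+/+ arrays, the difference was 0.30 ± 0.08 (SE, n = 4 per genotype), and it did not pass (adjusted p = 0.0694, limma). It stayed between 0.24 and 0.36 when any 1 array was left out, and was 0.32 without air and 0.28 after air.

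The only other member with all 4 Snx5-/- arrays above all 4 Snx5+/+ arrays was Ndufc2, so 2 of 78 members did so, against 3.09% of all genes, and 0 members had the opposite order, against 4.85% of all genes. Ndufc2, a supernumerary subunit of the membrane arm of complex I, had log2 levels of 14.01 and 14.16 in Snx5-/- non-air lungs, 13.86 and 13.40 in Snx5+/+ non-air lungs, 13.98 and 14.05 in Snx5-/- air lungs and 13.91 and 13.80 in Snx5+/+ air lungs. Its difference was 0.31 ± 0.10 (SE, n = 4 per genotype, adjusted p = 0.157, limma), and 0.19 without Snx5+/+ non-air replicate 2. In complex III, Uqcrb, which binds near the ubiquinone site, differed by 0.29 (adjusted p = 0.285, limma). In complex V the largest difference was that of Atp5l, the g subunit, at 0.20, which did not pass the test.

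The most negative averages were small. They were -0.09 for Ndufa3 in complex I, -0.10 for Sdhd in complex II, -0.04 for Uqcr10 in complex III, -0.08 for Cox4i2 in complex IV and -0.01 for Atp5b in complex V, with adjusted p-values of 0.711 to 0.982 (limma). Those of Ndufa3, Uqcr10, Cox4i2 and Atp5b turned positive when certain single arrays were left out.

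In complex II, Sdhb, the iron-sulphur subunit, had log2 levels of 11.93 and 11.93 in Snx5-/- non-air lungs and 11.69 and 11.51 in Snx5+/+ non-air lungs, and 11.76 and 11.65 in Snx5-/- air lungs and 11.87 and 11.91 in Snx5+/+ air lungs. The groups did not overlap in either state, with opposite order, and the interaction was -0.52 (adjusted p = 0.220, limma), the lowest adjusted p of the members in that test. Another Sdhb probe, also detected on 8 arrays, did not show the opposite order. Its genotype difference was 0.23 without air and 0.04 after air, and its interaction was -0.19. The membrane anchors Sdhc and Sdhd differed between genotypes by 0.18 and -0.10 on average (adjusted p = 0.419 and 0.711, limma). Sdhd was the member of complex II that did not drop on the low array, at 9.99 beside 10.03 on the other Snx5+/+ non-air array.

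**Figure D4:**
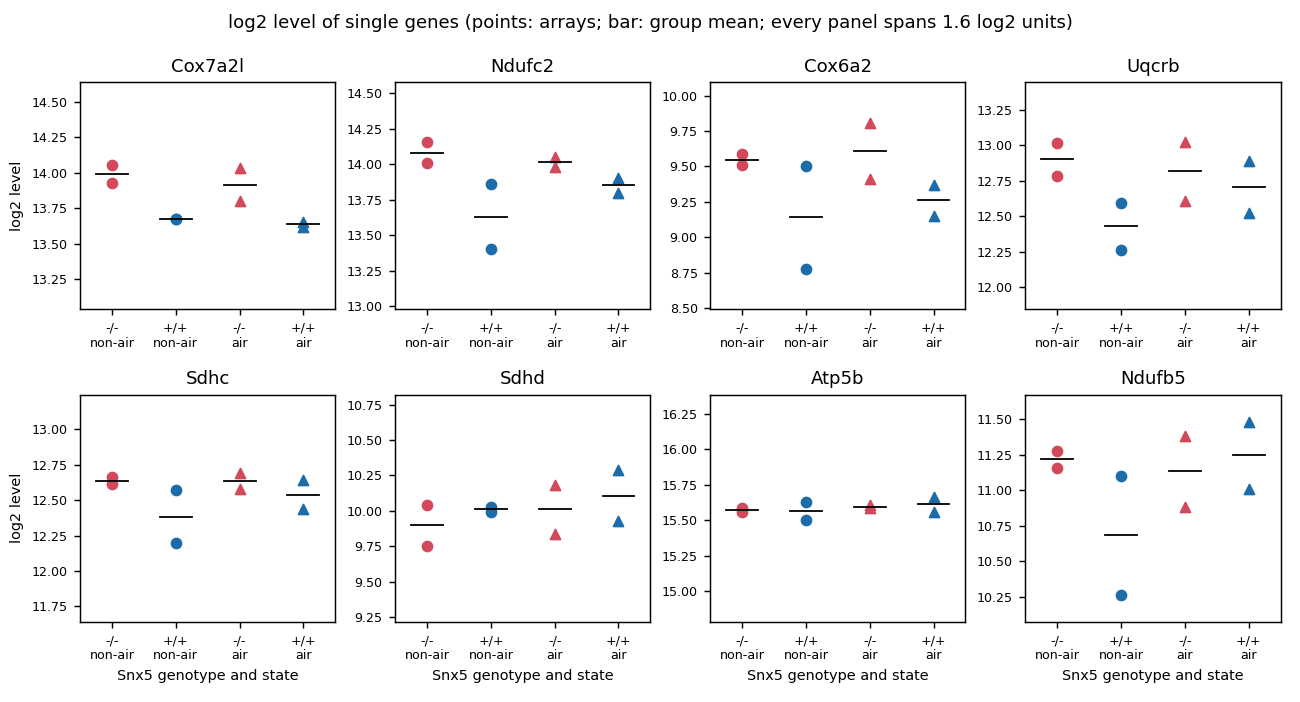
log2 level (vertical axis) of 8 oxidative phosphorylation genes in Snx5-/- and Snx5+/+ lungs without air (circles) and after air (triangles), 1 point per array and a bar at the mean of each group. For Cox7a2l every Snx5-/- array lies above every Snx5+/+ array, while for Ndufb5 a single Snx5+/+ non-air array at 10.26 lies far below the other 7.

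Complex IV holds pairs of isoforms, in which one form is found in most tissues and the other is known from heart and skeletal muscle or from a particular organ. Levels of different probes cannot be set against each other, so each isoform is given by its own differences. Cox6a2, the heart and muscle form, had the largest average difference between genotypes of all members, 0.38 ± 0.14 (SE, n = 4 per genotype, adjusted p = 0.232, limma), and Cox6a1, the form of other tissues, had -0.05. Cox6a2 had log2 levels of 9.59 and 9.51 in Snx5-/- non-air lungs, 9.51 and 8.78 in Snx5+/+ non-air lungs, 9.41 and 9.81 in Snx5-/- air lungs and 9.15 and 9.37 in Snx5+/+ air lungs. The Snx5-/- values were above the Snx5+/+ values after air and met them without air, and the average was 0.20 without Snx5+/+ non-air replicate 2. The other muscle forms, Cox7a1 and Cox8b, differed by 0.10 and 0.14, and their partners Cox7a2 and Cox8a by 0.00 and 0.08. Cox4i2, known as the lung form, differed by -0.08 and Cox4i1 by 0.13. Cox6b2, known from testis, differed by 0.03 and Cox6b1 by -0.01, and Ndufa4 differed by 0.16. None of these passed the test (adjusted p of 0.232 or more, limma). Other probes of Cox6a1 and Cox6b1, each detected on 8 arrays, had average differences of 0.07 and 0.13, opposite in sign to those given, and were not called.

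Muscle markers moved with genotype in the same lungs. Of 15 tested genes of a heart muscle list that holds Cox6a2 itself, 11 were called higher in Snx5-/- than in Snx5+/+ lungs on average. Of all genes, 2.41% were called in that comparison, in either direction. The 11 included Actc1, Tnnc1 and Myl4, which encode sarcomere proteins. They also included Myl2, detected on 1 array, and Mybpc3, detected on 2. Both had a group mean above a log2 level of 8 only in Snx5-/- lungs. They entered the test through those lungs, so their direction was partly set by the filter. The summed linear intensity of the 21 listed genes was 20762 and 21202 on the Snx5-/- non-air arrays, 15076 and 11549 on the Snx5+/+ non-air arrays, 23291 and 25513 on the Snx5-/- air arrays and 13645 and 14464 on the Snx5+/+ air arrays. Myh7, Nppa, Nppb, Pln, Ryr2, Ckmt2 and Mb were detected on 0 arrays. In a skeletal muscle list, all 7 tested genes were positive on average. Of these, 3 were called higher in Snx5-/- lungs, beside the same 2.41% of all genes. They were Acta1, Tnni2 and Ckm, which encode an actin, a troponin and creatine kinase. Acta1, Tnnt3 and Atp2a1 had a group mean above a log2 level of 8 only in Snx5-/- air lungs. They entered the test through that group, so their positive sign was partly set by the filter. Acta1 and Tnnt3 were each detected on 1 array. The summed intensity of the 11 listed genes was 2892 and 3207 on the Snx5-/- non-air arrays, 2641 and 2427 on the Snx5+/+ non-air arrays, 3477 and 3562 on the Snx5-/- air arrays and 2602 and 2832 on the Snx5+/+ air arrays. Tnnc2, Myog, Atp2a1 and Mylk2 were detected on 0 arrays. The part of these cells in the values of Cox6a2 was not tested, and in whole lung a smaller number of cells of a type cannot be told apart from less RNA per cell.

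On chromosome 2, which carries Snx5, lie 8 members (RefSeq, GRCm38.p6), and for these the trapped allele and the strain of the stem cells around it cannot be told apart. The nearest is Ndufaf5, an assembly factor of complex I, 37 places from Snx5 in gene order, with an average difference of 0.07 (adjusted p = 0.695, limma). Cox4i2 lies 223 places away. The others are Ndufaf1, Atp5e, Ndufs3, Atp5g3, Ndufa8 and Atp5c1, with average differences between 0.00 and 0.10, so none of the 8 was among the larger ones.

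Other mitochondrial gene lists were set beside the members on each array. On Snx5+/+ non-air replicate 2 the median deviation was -0.27 over 70 genes of the mitochondrial ribosome, which makes the mitochondrially encoded subunits, and 51 of them had their lowest value there. It was -0.13 over 56 genes of the cytosolic ribosome, -0.23 over 12 assembly factors of complex IV, -0.19 over 5 further assembly factors of complex I and -0.13 over 10 of complexes II, III and V. It was -0.01 over 14 genes of the citrate cycle, which feeds electrons to complexes I and II, -0.01 over 10 regulators of mitochondrial biogenesis, -0.12 over 14 mitochondrial carriers and import factors and 0.04 over 13 glycolysis genes. Of the cytochromes that carry electrons within and from complex III, Cyc1 deviated by -0.08 on it and Cycs by -0.39. Leaving the cytosolic ribosome aside, 0 genes of the other 9 lists were called in the 6 comparisons (limma). At an unadjusted p under 0.05 (limma) the highest number was 24 of 70, for the mitochondrial ribosome with air in Snx5+/+ lungs, beside 16.8% of all genes. The same list had 22 of 70 between genotypes without air, beside 13.8%, and 21 of 70 in the interaction, beside 12.0%. Each of these comparisons includes the low array. In the cytosolic ribosome, Rpl7a and Rps15a were called higher in Snx5-/- than in Snx5+/+ lungs on average. These were 2 of 56 tested, beside 2.41% of all genes called in either direction. Rps15a was also called after air alone, as 1 of 55 tested, beside 2.36% of all genes.

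**Figure D5:**
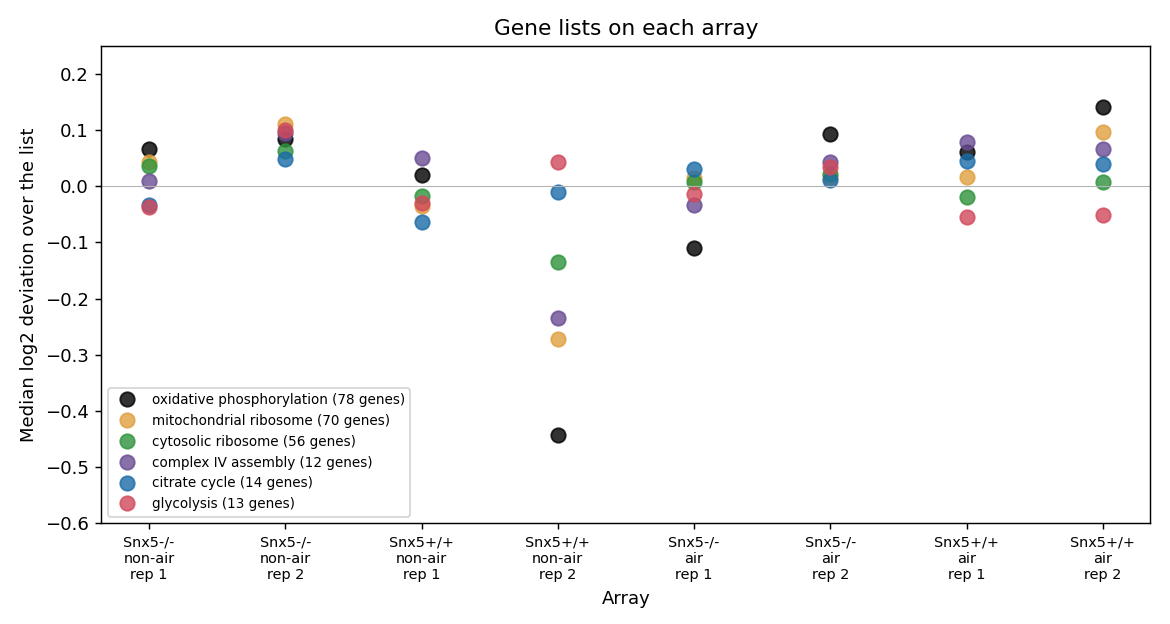
Median log2 deviation from the gene means (vertical axis) of 6 gene lists on each of the 8 arrays. On Snx5+/+ non-air replicate 2 the oxidative phosphorylation genes lie at -0.44, mitochondrial ribosome genes at -0.27 and cytosolic ribosome genes at -0.13, while the citrate cycle at -0.01 and glycolysis at 0.04 lie near 0.

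Because the members lay low together on 1 array, their promoters were searched for motifs known from genes of the respiratory chain. Promoter windows of 250 bases before to 50 after the start (RefSeq, GRCm38.p6) were found for 70 of the 85 members. The NRF1 motif GCGCATGC, on either strand, was found for 11 of 70 members (15.7%) and 3.05% of all 27025 genes with a window, and the YY1 motif AAGATGGCG for 7 members and 1.64% of all genes. The GABP motif CCGGAAGT was found for 5 members (7.14%) and 4.31% of all genes, and the ERR motif TCAAGGTCA for 2 members (2.86%) and 0.466% of all genes. Of the 7 YY1 matches, 6 lay 22 to 35 bases past the start. On the low array the median deviations were -0.42 with and -0.45 without NRF1 and -0.38 with and -0.45 without any of the 4 motifs. They were -0.45 with and -0.44 without YY1, and -0.51 with and -0.44 without GABP. For ERR they were -0.11 with and -0.45 without, where only 2 members hold the motif. The matches are of letters and are not sites of binding.

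The 100 bases before the start are shown for 5 members that lay low on that array and hold a match there, to show where the letters fall. The capitals mark the NRF1 motif or its reverse complement in Ndufa6 (chr15:82354292-82354391, minus strand), Atp5g2 (chr15:102671048-102671147, minus strand) and Sdhb (chr4:140961171-140961270, plus strand), where in Atp5g2 both orientations overlap. They mark the reverse complement of the GABP motif in Atp5h (chr11:115419920-115420019, minus strand) and the YY1 motif in Atp5j (chr16:84834977-84835076, minus strand). Each is written 5′ to 3′ on the strand of the gene.
Ndufa6: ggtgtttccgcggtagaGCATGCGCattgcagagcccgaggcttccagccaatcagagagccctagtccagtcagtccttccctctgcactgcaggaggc
Atp5g2: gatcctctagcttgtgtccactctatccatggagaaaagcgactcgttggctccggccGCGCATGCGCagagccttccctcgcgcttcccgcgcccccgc
Sdhb: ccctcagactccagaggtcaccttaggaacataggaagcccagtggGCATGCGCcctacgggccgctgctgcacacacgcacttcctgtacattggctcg
Atp5h: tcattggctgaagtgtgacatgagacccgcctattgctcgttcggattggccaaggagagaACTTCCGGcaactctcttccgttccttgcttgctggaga
Atp5j: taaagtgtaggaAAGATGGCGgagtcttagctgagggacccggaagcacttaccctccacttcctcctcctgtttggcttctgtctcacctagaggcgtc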

How the data were processed

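RNA of whole embryonic lungs was hybridised to Illumina MouseRef-8 v2 arrays. The authors deposited log2 values, quantile normalized by their methods, which are the values used, and non-normalized intensities on a linear scale. Detection p-values were deposited beside the intensities, and a probe was called detected under 0.01. How they were made is not given in the sources. All per-sample columns were used or checked, leaving 0 unused.

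Linear models with moderated statistics (limma 3.58.1, R 4.3.3) were fitted to 8 arrays in 4 groups without a block, over the probes with a group mean above 8 in at least 1 group compared. Percentages of all genes are over 1 probe per gene. The fit was tested on simulated data. With 2 arrays a group the number of arrays limits the precision, and an exact permutation test of 2 against 2 could not give a p below 0.333.

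The members and lists were chosen with earlier results of these data known. The named genes were, per complex, the largest positive and negative average genotype difference, the Sdh genes, isoform pairs, members on the chromosome of Snx5 and called genes of the comparison lists, for which counts are given with examples. The alternatives were the other table and its labels, neqc with an offset of 16, median scaling, other filters, a variance trend and a replicate block. Further ones were the mean of a gene's probes, no fold cutoff, a Student t-test and each array left out. The crossed block and the unadjusted p were added after seeing the data.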

Additional observations from a re-analysis of the deposited data

How the results depend on the processing

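Every count of members called was 0 with all 8 arrays, and stayed 0 with the planned normalizations, filters, variance trend, no fold cutoff and replicate block. The replicate block left the medians at 0.273 without air and 0.3 for air in Snx5+/+ lungs. Correlations of same-numbered arrays between pairs of groups ranged from -0.227 to 0.278. They were 0.278 for Snx5-/- non-air with Snx5+/+ air and 0.23 for the air groups, but 0.0518 or less in the other 4 pairs, so the numbers were not taken as pairing. With the Snx5+/+ non-air numbers crossed, 1 member was called without air, 4 for air in Snx5+/+ lungs and 1 lower in the interaction, beside 1.18%, 2.46% and 0.851% of all genes. At an unadjusted p under 0.05 with the fold cutoff, limma gave 10 members higher without air, 1 lower after air, 1 higher on average, 20 higher for air in Snx5+/+ lungs and 17 lower in the interaction. At the same thresholds the Student t-test gave 1 for air in Snx5+/+ lungs. The share of all genes at these thresholds is not given here, so these counts are not read as a result about the members.

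With 1 array left out, the members called ranged from 0 to 28 higher without air, 0 to 5 on average, 0 to 41 for air in Snx5+/+ lungs and 0 to 21 lower in the interaction. Where those highest counts arose, 5.73%, 3.19%, 9.37% and 4.51% of all genes were called. The medians ranged from 0.0573 to 0.51 without air, 0.0872 to 0.518 for air in Snx5+/+ lungs and -0.617 to -0.161 in the interaction. The highest counts and the most extreme of these medians came without Snx5+/+ non-air replicate 1, and the medians nearest 0 without its replicate 2. Average differences ranged from -0.285 to 0.104 for Ndufa3, -0.168 to 0.0907 for Uqcr10, -0.186 to 0.025 for Cox4i2, -0.0362 to 0.0252 for Atp5b, 0.192 to 0.422 for Ndufc2 and 0.195 to 0.56 for Cox6a2, and Ndufc2 and Cox6a2 were called without Snx5+/+ non-air replicate 1. With the mean of all its probes, that of Uqcr10 was 0.00879.

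Under the own labels of the intensities, the low array was Snx5+/+ air replicate 2, with a median deviation of -0.443, and Snx5+/+ non-air replicate 2 had 0.141. The medians were then -0.0785 without air, 0.273 after air, -0.303 for air in Snx5+/+ lungs and 0.377 in the interaction. The median deviation of the low array was -0.462 with neqc and -0.518 with median scaling.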
